A study of Mus musculus with 19 samples.

Results

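The genes described here are the receptors with which white blood cells bind fungal cell walls, and the proteins that carry their signal inward. They are 8 mouse genes taken by name: the C-type lectins Clec7a (Dectin-1), Clec4n (Dectin-2), Clec4d (Mcl) and Clec4e (Mincle), the kinase gene Syk, and the adaptor and protease genes Card9, Bcl10 and Malt1. Members were found as the non-control probes whose gene name, or an older name of the same gene, was one of these. Of the 8 genes, 7 had a probe, with 9 probes between them among 41174 non-control probes for 27597 gene names. Card9 had no probe, so its mRNA level is not analysed here.

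C-type lectins of this family sit on the surface of neutrophils, monocytes, macrophages and dendritic cells. Clec7a binds beta-glucan and starts signalling through a motif in its own tail, whereas Clec4n, which binds alpha-mannan, and Clec4d and Clec4e, which bind glycolipids, signal through the adaptor Fcer1g. Both routes recruit the kinase Syk, and the kinase Prkcd downstream of it acts on Card9, which assembles with Bcl10 and Malt1 and leads to NF-kB activity and cytokine transcription.

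The study followed B6 and DBA/2 mice, all male, after intraperitoneal CAWS, a water-soluble mannoprotein and beta-glucan fraction of Candida albicans that causes vasculitis in both strains and is lethal in DBA/2. The paper's discussion states, however, that CAWS does not contain the glucan ligand of Clec7a. Leukocyte RNA from blood, which the paper calls PBMC RNA, was taken right after the last of the daily injections (0 w) and at later times of 2, 4, 8 and 9 weeks (w), so that the 0 w mice had also received CAWS and no untreated group is used here. The later groups hold only mice that survived to their week. The labels give no ages, and the paper gives a range of some weeks for all its mice without tying it to the groups.

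The 10 strain-by-week groups held 18 RNA samples on 19 arrays. Each group had 2 samples except B6 2 w and B6 9 w, which had 1, and B6 0 w replicate 2 was hybridized to 2 arrays that were averaged. The labels call the samples of a group biological replicates without naming the mice, and the replicate label of DBA/2 2 w replicate 2 also reads technical replicate, at odds with its title, so the p-values measure the spread between these samples, and the number of arrays limits the precision. Levels are normalized log2 signals, where 0 is the 75th percentile of the reliably bright probes of an array. Changes are log2 differences between group means from the limma fit over all tested probes, with standard errors (SE) and p-values adjusted by the Benjamini-Hochberg method over all of those probes, and a change was called at an adjusted p under 0.05. Levels of different probes cannot be set against each other.

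Between 33.9% and 51.4% of the 43379 non-control spots were well above background on an array. The defining markers of white blood cells were well above background in every sample (8 of 8 pan-leukocyte genes). Hepatocyte markers were also high in both B6 0 w samples, where 10 of 10 were well above background and their summed linear level was 45.5 to 46.7. That sum was 23.9 to 25.2 at B6 8 w and no higher than 2.44 in any other group. Both B6 0 w samples carried it, so no B6 change can be given without it, and its part in the results was not tested. Over the 12185 probes well above background in all samples, the samples of B6 0 w differed by an SD of 0.214 and those of B6 4 w by 0.236. This was no more than the 0.257 between both arrays of 1 RNA, while the DBA/2 groups differed by 0.315 to 0.415. The B6 0 w value is not fully comparable, since its replicate 2 is the average of those 2 arrays, which lowers the spread.

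The first question was how the receptors and their signalling genes moved within each strain after 0 w. Clec7a, Clec4d and Clec4e, the receptors with bright probes, rose in both strains at nearly every week, most at 8 w. For the mean of 4 w and 8 w, the change was 2.68 (SE 0.10) for Clec4e, 1.93 (SE 0.07) for Clec7a and 1.48 (SE 0.08) for Clec4d in DBA/2. It was 1.82 (SE 0.10), 1.71 (SE 0.07) and 1.16 (SE 0.08) in B6. The signalling genes moved less. For that mean, Bcl10 rose a little by its brighter probe, while its dimmer probe was lower in DBA/2 at 8 w. Malt1 fell in DBA/2 by its brightest probe, whereas its other probe, of nearly the same level, was lower at 4 w and 8 w in both strains. Syk was higher than at 0 w in DBA/2 at 4 w and lower in the single B6 sample at 2 w. By their brightest probes, all 7 measured members were called for the mean of 4 w and 8 w in DBA/2, against 22.8% of all tested probes, and 4 of 7 in B6, against 15.0%.

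Clec7a, the beta-glucan receptor, was measured by a probe at chr6:129427414-129427473 (mm8). Its level in DBA/2 was 1.12 and 1.08 at 0 w, 2.18 and 2.18 at 2 w, 2.78 and 2.63 at 4 w, 3.40 and 3.33 at 8 w, and 2.67 and 2.55 at 9 w. In B6 it was -0.27 and -0.25 at 0 w, 0.88 at 2 w, 0.58 and 0.61 at 4 w, 2.30 and 2.29 at 8 w, and 1.48 at 9 w. No later sample of a strain overlapped its 0 w samples, and the DBA/2 samples were higher than the B6 samples at each week. The largest changes were 2.26 in DBA/2 (adjusted p = 1.4e-07) and 2.56 in B6 (adjusted p = 1.3e-07), both at 8 w.

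Clec4d and Clec4e are neighbours on chromosome 6, as is Clec4n, and each had 1 probe. Clec4d, the receptor that pairs with Clec4e, was measured at chr6:123240389-123240448 (mm8). Its level in DBA/2 was 0.50 and 0.44 at 0 w, 1.67 and 1.41 at 2 w, 2.00 and 1.85 at 4 w, 1.98 and 1.98 at 8 w, and 1.40 and 1.35 at 9 w. In B6 it was 0.27 and 0.36 at 0 w, 0.50 at 2 w, 1.08 and 1.14 at 4 w, 1.83 and 1.85 at 8 w, and 1.21 at 9 w. The DBA/2 samples had reached their later range by 2 w, while the B6 sample at 2 w lay close to those at 0 w. Its change at 4 w was 1.45 in DBA/2 (adjusted p = 1.5e-05) and 0.80 in B6 (adjusted p = 0.00073), and at 8 w it was 1.51 and 1.53.

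Clec4e, the receptor that binds trehalose glycolipids, was measured at chr6:123248479-123248538 (mm8). Its level in DBA/2 was -2.82 and -3.01 at 0 w, -1.34 and -1.33 at 2 w, -0.62 and -0.87 at 4 w, 0.39 and 0.17 at 8 w, and -0.34 and -0.39 at 9 w. In B6 it was -2.83 and -2.90 at 0 w, -1.59 at 2 w, -1.72 and -1.62 at 4 w, -0.41 and -0.43 at 8 w, and -0.92 at 9 w. The samples of both strains overlapped at 0 w and at no later week. Clec4e had the largest change of the members that were well above background in every sample, 3.19 (SE 0.11, adjusted p = 1.45e-07) in DBA/2 at 8 w, against 2.45 (adjusted p = 1.13e-06) in B6.

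**Figure D1:**
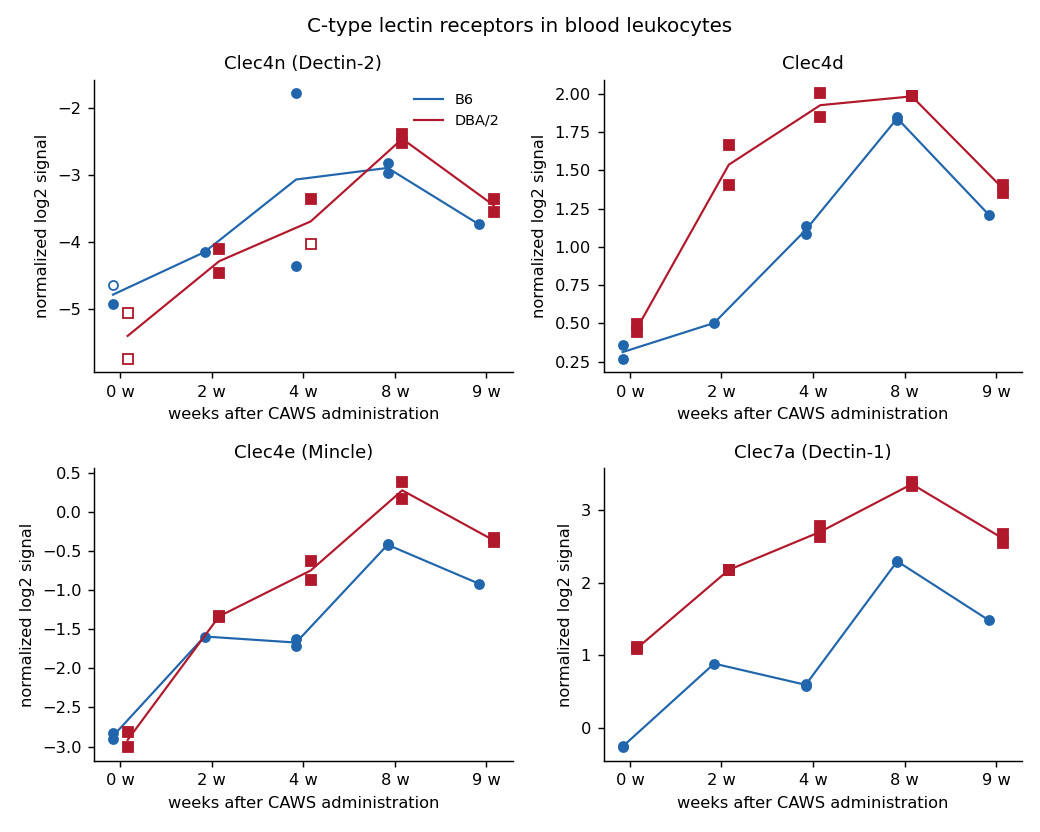
Normalized log2 signal of each lectin probe (vertical axis, 0 being the 75th percentile of the reliably bright probes of the array) against weeks after CAWS (horizontal axis), with circles for B6, squares for DBA/2, open symbols for samples not well above background and lines through the group means. Clec7a, Clec4d and Clec4e rose to 8 w in both strains with close replicates, whereas Clec4n was dim and its B6 4 w samples lay far apart, at -1.78 and -4.36.

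Clec4n, the alpha-mannan receptor, was the dim member, and its probe spans an intron between chr6:123210181 and chr6:123212087 (mm8). It was well above background in 14 of 18 samples, and not in B6 0 w replicate 2, DBA/2 4 w replicate 2 or either DBA/2 0 w sample. In DBA/2 its level was -5.06 and -5.74 at 0 w, -4.11 and -4.46 at 2 w, -3.36 and -4.03 at 4 w, -2.39 and -2.53 at 8 w, and -3.36 and -3.55 at 9 w. In B6 it was -4.93 and -4.64 at 0 w, -4.15 at 2 w, -1.78 and -4.36 at 4 w, -2.97 and -2.83 at 8 w, and -3.74 at 9 w. No later sample of either strain overlapped the 0 w samples of its strain. The B6 4 w samples differed by more than any other pair of one group, with unscaled signals of 79.0 and 13.8.

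Since neither DBA/2 0 w array measured Clec4n, its rise there is a lower bound, taken against the lowest signal that was well above background on those arrays. The bound was at least 5.29-fold at 8 w (adjusted p = 0.00944), from measured means of -5.40 and -2.46. At the other weeks the change did not pass the threshold. The bounds were at least 1.49-fold at 2 w (adjusted p = 0.324) and 2.66-fold at 9 w (adjusted p = 0.0519). The value found in the same way at 4 w was 2.25-fold (adjusted p = 0.121, 1 of 2 arrays well above background). For the mean of 4 w and 8 w it was 3.45-fold, with a call in DBA/2 (fitted change 2.32, SE 0.56, adjusted p = 0.0155). These last values are no strict lower bounds, since DBA/2 4 w replicate 2 was itself not well above background. Fitted changes of Clec4n in DBA/2 use the measured signal of the dim 0 w arrays and are no sizes. In B6 the fitted mean change was 1.80 (SE 0.56, adjusted p = 0.0618), with a 4 w change of 1.72 (adjusted p = 0.114) and an 8 w change of 1.89 (adjusted p = 0.0697). The B6 values rest in part on B6 0 w replicate 2, which was also not well above background, so their size is uncertain too. With the scan day, which is the replicate number, as a block, the B6 mean (1.80, adjusted p = 0.0389) and the 8 w change (1.89, adjusted p = 0.0461) were called, as was DBA/2 at 9 w (adjusted p = 0.0339).

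The Clec4n calls rested on single arrays. Without DBA/2 0 w replicate 2 the 8 w change in DBA/2 was 2.60 (adjusted p = 0.0676), and without DBA/2 8 w replicate 1 it was 2.87 (adjusted p = 0.0509). The DBA/2 mean change was 2.67 (adjusted p = 0.0501) without DBA/2 0 w replicate 1 and 1.98 (adjusted p = 0.127) without DBA/2 0 w replicate 2. The B6 4 w change was 0.43 (adjusted p = 0.529) without B6 4 w replicate 1 and 3.01 (adjusted p = 0.00138) without B6 4 w replicate 2. Leaving out either of those widely spaced arrays also lowered the pooled spread: the B6 8 w change of 1.89 then had an adjusted p of 0.00194 and the DBA/2 4 w change of 1.71 one of 0.00519. With the normexp background correction the DBA/2 mean change of Clec4n was 0.72 (adjusted p = 0.858).

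The promoters of the receptors with the clearest rises are printed because those genes rose together. They are the 250 bases before the RefSeq start farthest upstream of each gene on GRCm38.p6, given 5′ to 3′ on the strand of the gene. Capitals mark 2 short motifs of myeloid transcription factors, the PU.1 core GAGGAA, which reads TTCCTC on the reverse strand, and the C/EBP site TTGCNNAA, here also read as its reverse complement. These promoters lie at chr6:129472786-129473035 on the minus strand for Clec7a, chr6:123261857-123262106 on the plus strand for Clec4d and chr6:123289872-123290121 on the minus strand for Clec4e.
Clec7a: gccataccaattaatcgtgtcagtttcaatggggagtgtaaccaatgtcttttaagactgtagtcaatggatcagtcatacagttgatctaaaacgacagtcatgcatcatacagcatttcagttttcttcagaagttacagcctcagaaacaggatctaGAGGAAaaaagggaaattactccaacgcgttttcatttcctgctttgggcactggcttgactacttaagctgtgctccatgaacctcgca
Clec4d: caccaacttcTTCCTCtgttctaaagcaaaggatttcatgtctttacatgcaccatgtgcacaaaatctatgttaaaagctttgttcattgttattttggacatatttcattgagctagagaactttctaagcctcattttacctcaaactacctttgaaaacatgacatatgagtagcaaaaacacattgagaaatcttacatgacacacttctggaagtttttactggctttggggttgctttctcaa
Clec4e: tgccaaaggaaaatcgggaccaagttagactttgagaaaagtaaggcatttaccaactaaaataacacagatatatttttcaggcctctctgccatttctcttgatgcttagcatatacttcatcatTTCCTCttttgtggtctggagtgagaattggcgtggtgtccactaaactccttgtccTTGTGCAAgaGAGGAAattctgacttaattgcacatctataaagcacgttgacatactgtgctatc

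The PU.1 core began 90 bases before the start of Clec7a, 240 bases before that of Clec4d, and 123 and 56 bases before that of Clec4e. The C/EBP site stood only in the Clec4e promoter among these, 66 bases before the start. Of 32851 promoters of the same length, 23.3% held the PU.1 core and 9.56% the C/EBP site, on either strand. A GAS element (TTCNNNGAA, in 7.02% of promoters) and an NF-kB site (GGG, any 2 bases, then TTTCC, in 1.41%) were found in none of the promoters read for the members, nor were any of these motifs in those of Card9, Syk and Bcl10. Promoters were matched for 6 of 8 members. Clec7a and Syk had 2 promoter entries each, and only the start farthest upstream was read. A match is a description of letters in this window and not a measured binding site.

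Week by week in DBA/2, 5 of 7 members were called at 2 w, against 15.7% of all tested probes. At 4 w it was 6 of 7 against 14.8%, at 8 w 6 of 7 against 23.9%, and at 9 w 5 of 7 against 27.6%. In B6, 4 of 7 members were called at each week, against 13.0% of all tested probes at 2 w, 15.6% at 4 w, 21.2% at 8 w and, last, 9.30% at 9 w. Clec7a and Clec4e were called at every week in both strains, and Clec4d at every week but 2 w in B6. The arrays of a replicate number were scanned on the same day, and those of DBA/2 from 0 w to 8 w lay on the same slide, so changes could be taken within each. Within the slides of DBA/2, the 8 w change was 3.21 and 3.18 for Clec4e, 2.28 and 2.25 for Clec7a, 1.48 and 1.54 for Clec4d and -1.16 and -1.30 for the first Malt1 probe. Within the scan days of B6, it was 2.42 and 2.47 for Clec4e, 2.58 and 2.54 for Clec7a and 1.56 and 1.49 for Clec4d. Clec4n was 3.15 and 0.28 within the B6 scan days at 4 w. A single sample stands behind each B6 value of 2 w or 9 w, and the fit takes it to vary like the other groups.

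Syk, the kinase that docks on the receptors and on Fcer1g, was measured at chr13:52660724-52660783 (mm8). Its level in DBA/2 was -0.84 and -0.86 at 0 w, -0.77 and -0.85 at 2 w, -0.37 and -0.48 at 4 w, -0.66 and -0.63 at 8 w, and -0.67 and -0.78 at 9 w. In B6 it was -0.26 and -0.26 at 0 w, -0.97 at 2 w, -0.37 and -0.35 at 4 w, -0.33 and -0.39 at 8 w, and -0.40 at 9 w. At 0 w both DBA/2 samples lay below both B6 samples. Syk was 0.43 (SE 0.07, adjusted p = 0.0045) higher than at 0 w in DBA/2 at 4 w, and 0.71 lower, at -0.71 (SE 0.09, adjusted p = 0.000626), in the single B6 sample at 2 w. The DBA/2 mean of 4 w and 8 w was 0.32 (SE 0.06, adjusted p = 0.00624), but -0.032 when arrays were centred on the pan-leukocyte genes, and it was no longer called without DBA/2 0 w replicate 2 (0.31, adjusted p = 0.054). The B6 mean was -0.10 (95% interval -0.25 to 0.04, adjusted p = 0.356).

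Bcl10, the adaptor that bridges Card9 to Malt1, had 2 probes on chromosome 3. The brighter, at chr3:145871268-145871327 (mm8), had levels in DBA/2 of 0.23 and 0.31 at 0 w, 0.66 and 0.64 at 2 w, 0.66 and 0.67 at 4 w, 0.62 and 0.55 at 8 w, and 0.67 and 0.59 at 9 w. In B6 its levels were 0.39 and 0.39 at 0 w, 0.08 at 2 w, 0.68 and 0.76 at 4 w, 0.95 and 0.92 at 8 w, and 0.84 at 9 w. All later DBA/2 samples lay above those at 0 w, and all later B6 samples but the one at 2 w lay above theirs. For this probe the mean of 4 w and 8 w was 0.35 (SE 0.06, adjusted p = 0.00287) in DBA/2, but 0.00 after centring on the pan-leukocyte genes, and 0.43 (SE 0.06, adjusted p = 0.0014) in B6. At 8 w in DBA/2 it was 0.31 (adjusted p = 0.011), but -0.067 after that centring and not called without replicate 1 of DBA/2 0 w or of DBA/2 8 w. Its call at DBA/2 2 w (0.38) was lost without DBA/2 0 w replicate 1 (adjusted p = 0.0514), and those at B6 4 w (0.33) and 9 w (0.45) without either B6 0 w replicate. The lower value of the single B6 2 w sample, -0.31 (adjusted p = 0.0452), was no longer called without most single samples (adjusted p up to 0.135).

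The dimmer Bcl10 probe, at chr3:145862443-145862502 (mm8), went the other way in DBA/2. Its DBA/2 levels were -1.78 and -1.94 at 0 w and -2.25 and -2.38 at 8 w, a change of -0.45 (adjusted p = 0.0366). Its B6 levels were -1.73 and -1.85 at 0 w and -1.11 and -1.20 at 8 w, a change of 0.63 (adjusted p = 0.0084). Both probes thus rose in B6, and they moved apart in DBA/2, so the direction of Bcl10 there depends on the probe. The mean of both probes gave 0.04 (adjusted p = 0.781) for the DBA/2 mean of 4 w and 8 w.

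Malt1, the protease of the complex, had 2 probes on chromosome 18 whose mean levels were nearly the same. The one used first, at chr18:65579592-65579651 (mm8), had levels in DBA/2 of -1.10 and -1.26 at 0 w, -1.55 and -1.78 at 2 w, -1.74 and -1.78 at 4 w, -2.27 and -2.56 at 8 w, and -1.78 and -1.84 at 9 w. In B6 its levels were -1.97 and -2.04 at 0 w, -2.09 at 2 w, -1.66 and -1.81 at 4 w, -1.81 and -1.97 at 8 w, and -1.60 at 9 w. Every later DBA/2 sample lay below both 0 w samples of the strain. It fell in DBA/2 at each week, with -1.23 (SE 0.12, adjusted p = 9.94e-05) at 8 w and -0.91 (SE 0.11, adjusted p = 0.000296) for the mean of 4 w and 8 w, whereas the B6 mean was 0.19 (95% interval -0.05 to 0.43, adjusted p = 0.294). The DBA/2 calls at 2 w (-0.48, adjusted p = 0.028) and 4 w (-0.58, adjusted p = 0.0127) were lost without single arrays: the first without either 0 w replicate or 2 w replicate 2 (-0.37, adjusted p = 0.194), the second without 0 w replicate 1 or either 4 w replicate (adjusted p up to 0.0891).

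The other Malt1 probe, at chr18:65604004-65604063 (mm8), is the one annotated to a RefSeq transcript. It lay higher at 0 w than at 4 w and 8 w in both strains, though not than at 9 w in B6, where the single sample was at -1.60. Its levels were -1.49 and -1.59 at 0 w and -1.83 and -1.94 at 8 w in DBA/2, a change of -0.35 (adjusted p = 0.0265). In B6 they were -1.63 and -1.75 at 0 w, -2.17 and -2.25 at 4 w and -1.91 and -2.04 at 8 w, with a change of -0.40 (SE 0.08, adjusted p = 0.0104) for the mean of 4 w and 8 w. The fall in DBA/2 thus had the same sign in both probes at 8 w and differed in size, and the B6 value differed in sign between them.

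**Figure D2:**
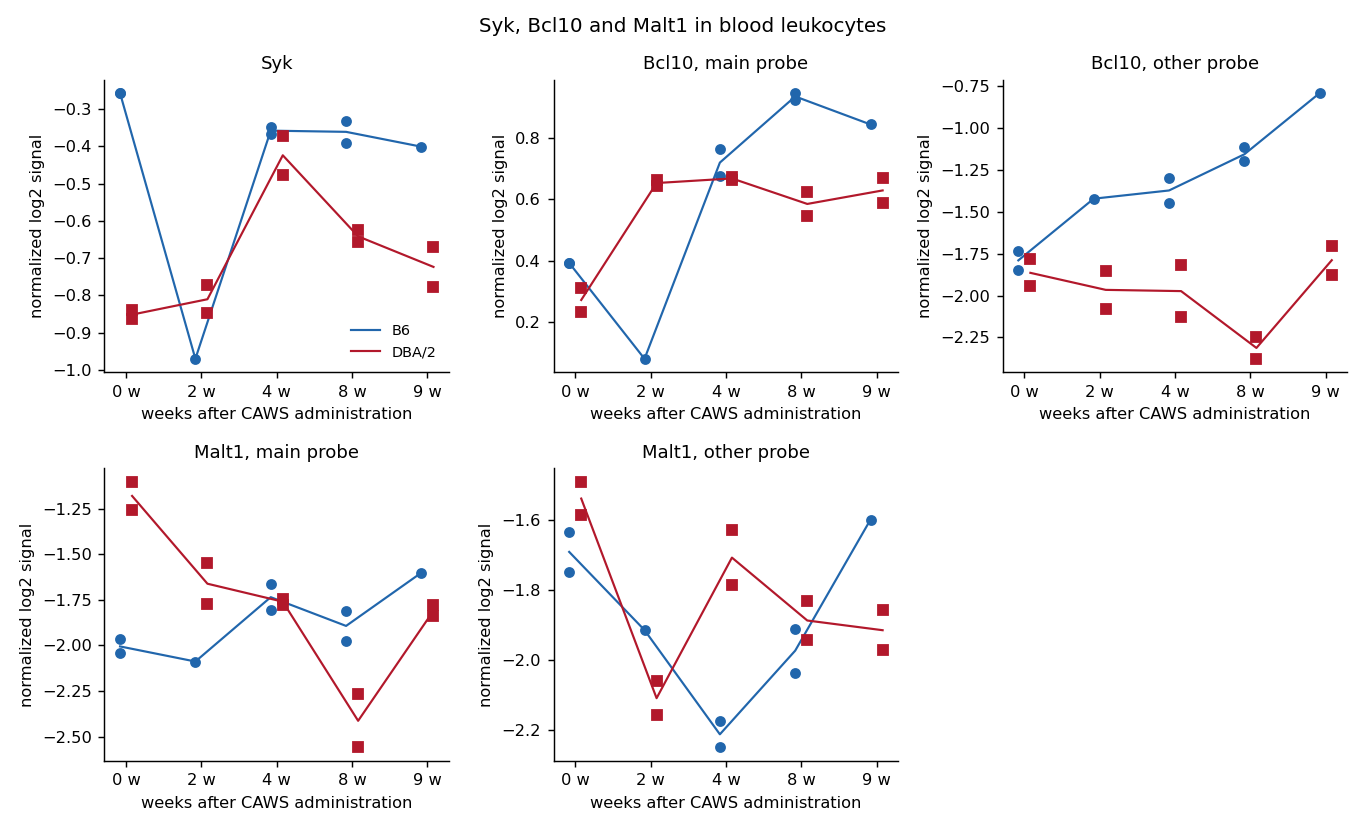
Normalized log2 signal of the Syk, Bcl10 and Malt1 probes (vertical axis) against weeks after CAWS (horizontal axis), with circles for B6, squares for DBA/2 and lines through the group means. The Bcl10 probes part in DBA/2 at 8 w, and the first Malt1 probe falls in DBA/2 from -1.10 and -1.26 at 0 w to -2.27 and -2.56 at 8 w.

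The second question was whether the change differed between strains. Tested as the DBA/2 change minus the B6 change for the mean of 4 w and 8 w, 3 of 7 members were called, against 13.2% of all tested probes. Clec4e rose more in DBA/2, by 0.86 (SE 0.14, adjusted p = 0.00339). The first Malt1 probe, which fell in DBA/2 and was not called in B6, differed by -1.10 (SE 0.15, adjusted p = 0.00152). Syk differed by 0.42 (SE 0.09, adjusted p = 0.0154). With the normexp background correction 0 of 7 members were called for this mean difference, nor for the strain difference at 4 w or at 8 w. That setting called few probes at all: 91, 109 and 126 over all tested probes, against 3021, 2710 and 4012 in the main fit. The count of 0 thus says little about the members. The Syk difference was not called when either B6 0 w or either DBA/2 0 w replicate was left out (adjusted p up to 0.0619).

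For the other receptors the mean difference did not pass the threshold. It was 0.23 for Clec7a (95% interval 0.01 to 0.44, adjusted p = 0.163), 0.32 for Clec4d (0.05 to 0.59, adjusted p = 0.119) and, resting on dim 0 w samples in both strains, 0.52 for Clec4n (-1.27 to 2.31, adjusted p = 0.776). The Clec4n difference was 1.17 without B6 4 w replicate 1 and -0.12 without B6 4 w replicate 2. For the brighter Bcl10 probe the difference was -0.08 (-0.28 to 0.12, adjusted p = 0.659), while the dimmer one gave -0.80 (SE 0.16, adjusted p = 0.0115). The second Malt1 probe gave 0.14 (SE 0.12, adjusted p = 0.525), against the -1.10 of the first.

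**Figure D3:**
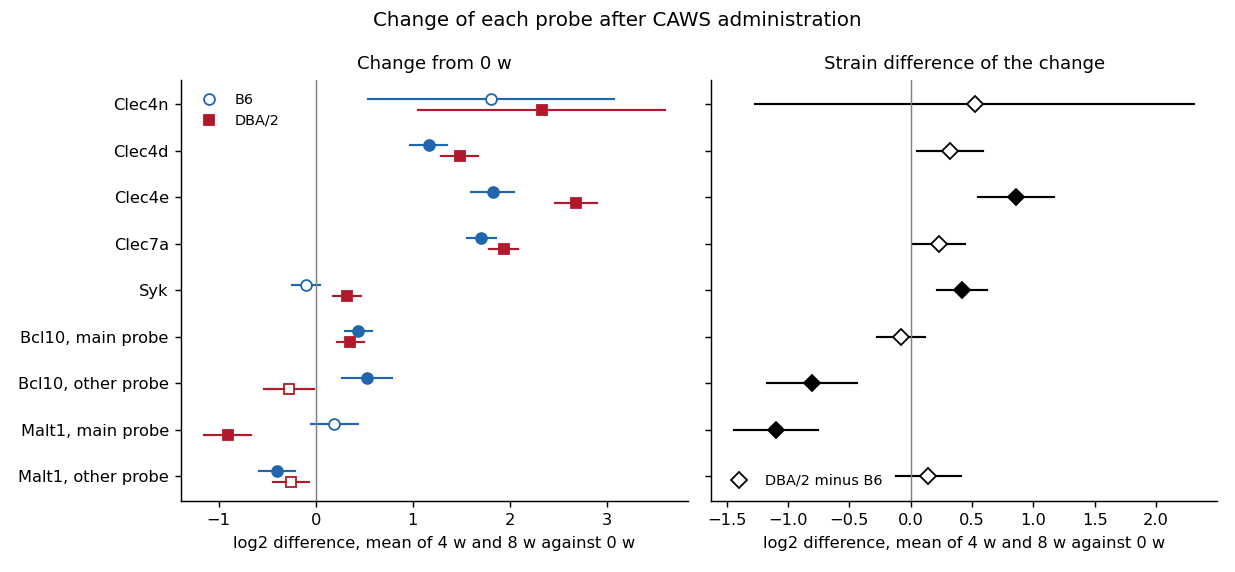
Log2 change from 0 w to the mean of 4 w and 8 w in DBA/2 (squares) and B6 (circles), and the strain difference (diamonds), on the horizontal axis for each member probe (1 row each), with bars for 95% intervals and filled symbols for an adjusted p under 0.05. Clec7a, Clec4d and Clec4e are right of 0 in both strains, and the Clec4n interval for the strain difference runs from -1.27 to 2.31.

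At single weeks the strains parted more at 4 w than at 8 w in the number of members called. At 4 w 5 of 7 were called, against 11.8% of all tested probes: Clec4d by 0.66 (adjusted p = 0.0137), Clec4e by 0.97 (adjusted p = 0.00376), Clec7a by 0.75 (adjusted p = 0.00203), Syk by 0.53 (adjusted p = 0.0103) and Malt1 by -0.85 (adjusted p = 0.0124). At 8 w 2 of 7 were called, against 17.5%: Clec4e by 0.75 (adjusted p = 0.011) and Malt1 by -1.34 (adjusted p = 0.000932). With B6 0 w and B6 4 w counted as 1 sample each, these counts were 2 and 1. Both Malt1 values are those of its first probe. The mean level of its other probe went from -1.54 at 0 w to -1.71 at 4 w and -1.89 at 8 w in DBA/2. In B6 it went from -1.69 to -2.21 and -1.97, so by this probe the fall at 4 w was larger in B6. The Clec4d difference at 4 w was not called without B6 0 w replicate 2 (0.61, adjusted p = 0.0519) or DBA/2 0 w replicate 2 (0.63, adjusted p = 0.0515). No test compared 4 w with 8 w.

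The third comparison set the strains against each other at the same week. Clec7a was higher in DBA/2 throughout, by 1.36 (adjusted p = 1.73e-06) at 0 w, 1.29 at 2 w, 2.11 (adjusted p = 1.04e-07) at 4 w, 1.07 (adjusted p = 1.07e-05) at 8 w and 1.12 (adjusted p = 6.03e-05) at 9 w. Right after the last injection 3 of 7 members differed, against 32.6% of all tested probes, the others being Malt1 (0.82, adjusted p = 0.00078) and Syk (-0.59, adjusted p = 0.000247). With so large a background this count says little about the members as a set. The Malt1 value is that of its first probe, and the means of its other probe lay closer, at -1.54 in DBA/2 and -1.69 in B6.

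At the later weeks Clec4d or Clec4e was also called. At 2 w 3 of 7 differed, against 23.9%, with Clec4d higher in DBA/2 by 1.03 (adjusted p = 0.000182) and the brighter Bcl10 probe by 0.57 (adjusted p = 0.00109). The dimmer Bcl10 probe lay the other way at 2 w, at a mean of -1.97 in DBA/2 and -1.42 in the single B6 sample. At 4 w 3 of 7 differed, against 32.1%, with Clec4d higher by 0.82 (adjusted p = 0.000178) and Clec4e by 0.92 (adjusted p = 0.000197). At 8 w 5 of 7 differed, against 25.4%, where Clec4e was higher by 0.70 (adjusted p = 0.00148) and Bcl10 (-0.35), Malt1 (-0.52) and Syk (-0.28) were lower. By its other probe Malt1 was not lower in DBA/2 at 8 w, with means of -1.89 in DBA/2 and -1.97 in B6. The Malt1 call was lost without B6 8 w replicate 1 (-0.44, adjusted p = 0.0782) or DBA/2 8 w replicate 2 (-0.37, adjusted p = 0.0987), and the Syk call without any of the 8 w samples. At 9 w 3 of 7 differed, against 13.3%, with Clec4e higher by 0.55 (adjusted p = 0.0265) and Syk lower, at -0.32 (adjusted p = 0.0453). At 9 w neither of these held without single arrays: the Clec4e call was lost without either DBA/2 9 w sample, and the Syk call without DBA/2 9 w replicate 2 (-0.27, adjusted p = 0.132) or most other samples.

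In blood, fewer cells of a type and less RNA per cell cannot be told apart, and markers of the cells that carry these receptors moved as well. The neutrophil list rose in both strains, with 9 of 9 tested genes higher for the mean of 4 w and 8 w and a median of 2.24 in DBA/2 and 2.20 in B6, against -0.14 and -0.08 for all tested probes. Its summed linear level went from 105 to 106 at 0 w to 696 to 776 at 8 w in DBA/2, and from 55.6 to 55.7 up to 426 to 428 in B6. This sum is mostly S100a9, with a mean log2 level of 7.69 against 3.83 for the next brightest gene, S100a8. In the neutrophil list, 1 of 9 genes was called higher and 1 lower in the strain difference. Every marker count stands against 22.8% of all tested probes called in DBA/2, 15.0% in B6 and 13.2% in the strain difference. Ly6g had no probe and Elane was well above background in fewer than 2 samples.

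Monocyte markers moved more in DBA/2, with 8 of 9 genes higher there, 3 higher and 1 lower in B6, and 8 of 9 higher in the strain difference. Their summed level was 95.3 to 101 at 0 w and 217 to 242 at 8 w in DBA/2, and 129 to 139 and 177 to 195 in B6. This sum is almost only Lyz2, with a mean log2 level of 7.25 against -0.22 for the next brightest gene, Ccr2. It therefore says little about the other monocyte genes. Tissue macrophage markers also moved more in DBA/2, at far lower sums, with 5 of 7 higher in DBA/2 and 1 higher and 3 lower in B6. Of the lymphocyte lists, 5 of 7 B cell genes were lower in DBA/2 and 0 in B6, 6 of 9 T cell genes were lower in DBA/2 and 5 in B6, and 4 of 5 NK cell genes were higher in DBA/2 and 4 lower in B6. Hepatocyte markers were lower in B6 for 8 of 10 genes. All 10 were well above background in both B6 0 w samples. Apoa1, Apoa2 and Cyp2e1 were so in only 4 of 18 samples, and Apob and Ttr in 3. The B6 0 w samples alone were enough for such genes to be tested, so their lower later values were largely fixed in advance. Of 6 platelet genes 3 were higher in DBA/2 and 4 in B6. Of 5 tested erythroid genes 2 were higher in DBA/2 and 2 lower in B6, and of 5 tested dendritic cell genes 1 was higher in DBA/2 and 1 lower in B6. The dendritic cell counts are near the shares of all tested probes, 22.8% and 15.0%, and say little about that list. The part of the listed cell types in the changes of the members was not tested.

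**Figure D4:**
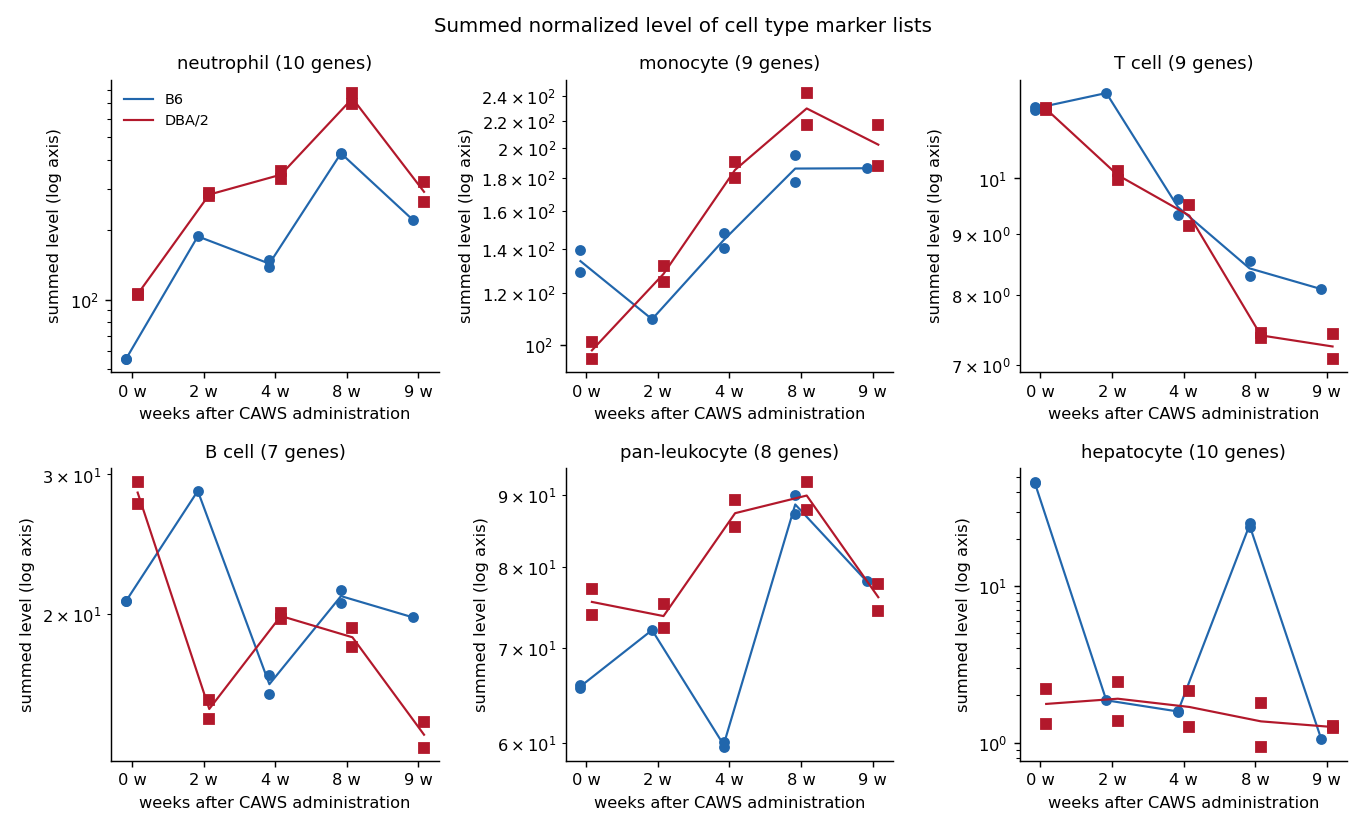
Summed linear level of 6 of the marker lists (vertical axis, log scale) in every sample against weeks after CAWS (horizontal axis), with circles for B6 squares for DBA/2 and lines through the group means. The neutrophil sum reached 696 to 776 in DBA/2 and 426 to 428 in B6 at 8 w, and the hepatocyte sum was high at B6 0 w and B6 8 w. Linear sums weigh the brightest genes of a list most.

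The rest of the pathway was described by 5 lists of its genes. Each count below stands against 22.8% of all tested probes called in DBA/2, 15.0% in B6 and 13.2% in the strain difference. Of 21 other C-type lectins 11 could be tested, and 6 were higher in DBA/2 and 3 higher and 1 lower in B6, with medians of 1.53 and 0.38. In the strain difference 3 were higher. Clec10a, a galactose lectin of macrophages, had levels in DBA/2 of -2.68 and -2.70 at 0 w, -0.90 and -0.91 at 4 w and -1.39 and -1.46 at 8 w, against -2.25 and -2.14, -3.07 and -2.83, and -1.78 and -1.75 in B6. Its change was 1.53 in DBA/2 and -0.16 (adjusted p = 0.302) in B6. Clec4a3 changed by 1.65 and 0.25, and Clec4a2, an inhibitory receptor of the same chromosome 6 cluster, by 2.00 and 0.95. The strain differences were 1.69 for Clec10a, 1.40 for Clec4a3 and 1.04 for Clec4a2.

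Of 20 adaptor and proximal signalling genes 19 were tested, with 7 higher and 1 lower in DBA/2, 7 higher in B6, and 4 higher and 1 lower in the strain difference. Fcer1g, the adaptor through which Clec4n, Clec4d and Clec4e signal, had levels of 2.35 and 2.20 at 0 w, 3.26 and 3.20 at 4 w and 3.72 and 3.64 at 8 w in DBA/2. In B6 they were 2.93 and 2.91, 3.44 and 3.47, and 3.71 and 3.83. It rose by 1.18 in DBA/2 and 0.70 in B6, a difference of 0.49 (SE 0.11, adjusted p = 0.0164). The adaptor Tyrobp rose by 1.60 in DBA/2 and 0.80 in B6. Prkcd, the kinase between Syk and Card9, was 0.60 higher in DBA/2 (adjusted p = 0.0035) and -0.19 in B6 (adjusted p = 0.292), with a strain difference of 0.79 (adjusted p = 0.00913), where its second probe gave 0.43 (adjusted p = 0.0908). Plcg2, the phospholipase downstream of Syk, gave 0.20 (adjusted p = 0.0552) and -0.12 (adjusted p = 0.283).

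Of 17 genes of the Card9 relatives and the NF-kB arm 15 were tested, and 1 was higher and 2 lower in each strain. These counts are near the shares of all tested probes, 22.8% in DBA/2 and 15.0% in B6, and say little about the list. Relb differed between strains by 0.45 (adjusted p = 0.0167). The brightest probe of Nfkb1 moved by 0.00 in DBA/2 and by -0.18 in B6 (adjusted p = 0.177), while 2 of its other probes were lower in DBA/2, at -0.72 and -0.63. The strain difference was -0.93 (adjusted p = 0.0108) and -0.91 (adjusted p = 0.00852) for those probes. It was not called for the brightest probe (0.18, adjusted p = 0.366) or the dimmest (-0.37, adjusted p = 0.506).

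Of 11 regulators of the pathway, all tested, 2 were higher and 1 lower in DBA/2, 3 were lower in B6 and 4 were higher in the strain difference. The DBA/2 count is near the 22.8% of all tested probes. Tnip1, an inhibitor of NF-kB signalling, differed between strains by 0.58 (adjusted p = 0.0103) and Nfkbia, which holds NF-kB in the cytoplasm, by 0.41 (adjusted p = 0.036). The brightest probe of Usp15, a deubiquitinase, differed by 0.57 (adjusted p = 0.0199) and the next brightest by 0.64 (adjusted p = 0.0017). A dimmer Usp15 probe gave -1.13 (adjusted p = 0.00673), and others gave 0.16 and 0.17 and were not called. Of 16 cytokines and mediators that the pathway induces 7 could be tested, and 2 were higher in DBA/2 and 1 in B6. These were Il1b, by 2.55 in DBA/2 and 2.40 in B6, and Il6 in DBA/2, which was well above background in only 3 of 18 samples and is given no size, both named after their values were seen. Tnf, Il12b, Il23a and Il17a were too dim to test. The cytokine counts of 2 and 1 of 7 are near the shares of all tested probes, 22.8% and 15.0%. After centring on the pan-leukocyte genes, 9 of 15 NF-kB arm genes were lower in DBA/2 and 8 in B6, where 9679 of all 22933 tested probes were also lower in DBA/2 and 5333 of 22936 in B6.

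**Figure D5:**
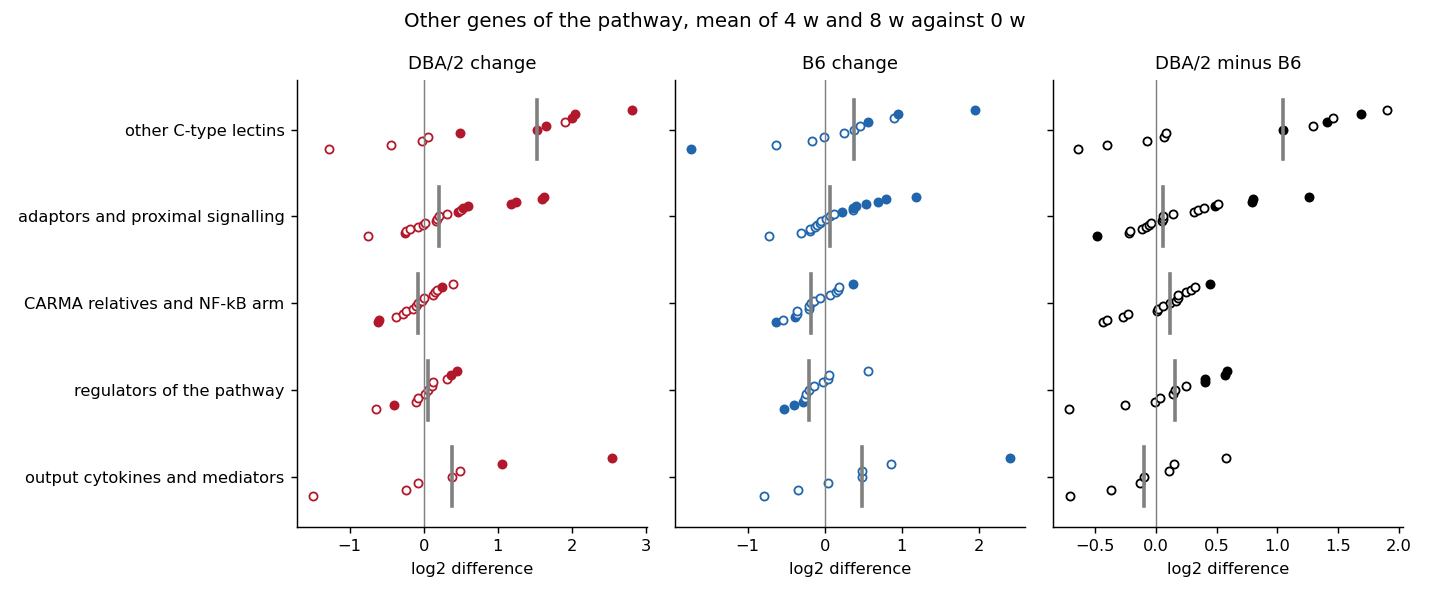
Log2 change from 0 w to the mean of 4 w and 8 w in DBA/2 and in B6, and the difference between strains (horizontal axis of each panel), for every tested gene of the 5 pathway lists (1 row per list), with filled symbols for an adjusted p under 0.05 and a grey bar for the median of each list. The median of the other C-type lectins was 1.53 in DBA/2 and 0.38 in B6, and that of the NF-kB arm was -0.08 and -0.18.

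Over the 10 group means the lectins followed one another, with Pearson correlations from 0.589 between Clec7a and Clec4n to 0.886 between Clec7a and Clec4d. Among 12185 probes well above background in all samples, the 5 genes most like Clec4n over those means were Arpc3 (r = 0.948), Ifitm7 (0.914), Hdc (0.910), Ltb4r1 (0.893) and Rhoa (0.889). These values rest in part on the widely spaced B6 4 w arrays. By the same measure the closest to Clec4e was Lpcat2 (0.988) and the closest to Clec7a was Trem3 (0.997), both looked up after the values were seen. The groups share strain and week, so the correlations are descriptions.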

How the data were processed

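RNA of circulating leukocytes was labelled with Cy3 by the authors and hybridized to single-color Agilent whole mouse genome arrays (G4122F), and Feature Extraction 9.5.3.1 read the images. The deposited intensity of each spot is the processed signal, from which the software had subtracted background and trends within the array, with very low values replaced by a surrogate. The deposited table of the series holds the same intensity per probe, not normalized between arrays. Its values matched the scanner output within 0.001 log2 for 100% of probes.

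After removal of control and outlier-marked spots, the log2 intensity of the spots of a probe was averaged, and each array was scaled by its 75th percentile, computed from the 11533 probes that passed the background call on all 19 arrays. A probe was tested where it passed that call in 2 or more of 18 samples. In limma 3.58.1 (R 4.3.3), lmFit took a mean per group and eBayes followed, with 8 residual degrees of freedom and a prior of 1.37. Benjamini-Hochberg adjustment covered all tested probes at a threshold of 0.05. A member is given by its probe with the highest mean level, with mm8 positions from the files. The genes of each pathway list that are named are the up to 3 with the largest strain difference past the threshold, plus Fcer1g, Plcg2, Prkcd and Nfkb1, and a few genes that this rule also names are not reported here.

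Arrays were scanned on 2 days that match the replicate number and lay on 6 slides. The 0 w to 8 w arrays of a DBA/2 replicate shared a slide, so a fixed slide term leaves out the contrasts of DBA/2 9 w with 0 w and of the strains at most weeks. The alternatives were normexp with an offset of 50, quantile normalization, the percentile over all probes, the deposited table, outlier spots kept, centring on 8 pan-leukocyte genes, no filter, a filter at 9 of 18 samples, replicate or slide as a block, single arrays of B6 0 w replicate 2, 1 strain alone, the mean of the probes of a member, and each replicate left out. A random slide block and counting B6 0 w and B6 4 w as 1 sample each were chosen after seeing the data. The fit was tested on simulated data with known changes.

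The members, the pathway and marker lists and the tests were chosen with earlier results of these data known. The authors' qRT-PCR and histology were not analysed here. Promoters came from RefSeq, and plots were drawn with Python 3.11.15 and matplotlib 3.10.9.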

Additional observations from a re-analysis of the deposited data

Results flagged for a closer look

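These are results in which the change after 0 w differed between DBA/2 and B6 mice by the limma test of the difference itself, as DBA/2 minus B6 with an adjusted p under 0.05. Groups of 1 or 2 samples allowed no test of single samples. Clec4e differed by 0.86 for the mean of 4 w and 8 w, 0.97 at 4 w and 0.75 at 8 w. Clec7a differed by 0.75 and Clec4d by 0.66, both at 4 w. Syk differed by 0.42 for the mean and 0.53 at 4 w. The first Malt1 probe differed by -1.10 for the mean, -0.85 at 4 w and -1.34 at 8 w, while its second probe gave 0.14 for the mean. The dimmer Bcl10 probe differed by -0.80 for the mean and -1.08 at 8 w, while the brighter gave -0.08 for the mean.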

How the results depend on the processing

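The counts of called members changed most often with the background correction and the filter for dim probes, and no reported value of Clec7a, Clec4d or Clec4e changed sign under the alternatives run. With normexp correction 3 of 7 members were called in DBA/2 at 2 w, 4 w, 8 w, 9 w and for the mean of 4 w and 8 w, 0 in B6 at 2 w and 4 w and 1 at 9 w, 0 in the strain difference for the mean, at 4 w and at 8 w, and 2 and 0 between strains at 8 w and 9 w. Over all tested probes, normexp called 147, 293, 616, 2816 and 583 in those DBA/2 comparisons, in that order. It called 277, 84 and 97 in those of B6, 91, 109 and 126 in the strain differences, and 932 and 587 between strains. Without the filter, 3 were called in DBA/2 at 2 w and 4 w, 2 and 1 in the strain difference at 4 w and 8 w, and 2 and 1 between strains at 8 w and 9 w. Quantile normalization called 3 in the strain difference at 8 w, centring on pan-leukocyte genes called 6 between strains at 4 w, the slide block called 1 between strains at 9 w, and the random slide block called 5 in the strain difference for the mean. Over all tested probes, quantile normalization called 3531 in that comparison and pan-leukocyte centring 10790 in its own. With B6 0 w and B6 4 w counted as 1 sample each, 2 and 1 were called in the strain difference at 4 w and 8 w and 1 between strains at 9 w.

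Leaving out 1 replicate gave 3 to 6 called members in DBA/2 at 2 w, 5 to 7 at 4 w, 4 to 6 at 8 w, 5 to 6 at 9 w and 5 to 7 for the mean, and in B6 3 to 4 at 2 w, at 4 w and at 9 w, 4 to 5 at 8 w and 4 to 5 for the mean. It gave 2 to 3 in the strain difference, 4 to 5 at 4 w and 2 at 8 w, and 3 to 5 and 1 to 2 between strains at 8 w and 9 w. Values that changed sign were Bcl10 in DBA/2 at 8 w (-0.067 with pan-leukocyte centring and -0.068 for the mean of its probes) and in B6 at 2 w (0.028 for the mean of its probes), Syk in the DBA/2 mean (-0.032 with that centring), Malt1 in the B6 mean (-0.032 with normexp, -0.11 for the mean of its probes), and Clec4n with normexp in B6 at 2 w (-0.041), 8 w (-0.081) and 9 w (-0.17). The strain difference of Clec4n ran from -0.12 to 1.17 with 1 replicate left out. The cause was not tested.

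The replicate number is also the scan day, and deviations from the group means correlated by over 0.1 in 23 of 28 pairs of groups, with a lowest value of -0.01, so samples of the same number partly moved together and not every pair did. With the replicate block the counts of called members stayed within 1.5 times, and Clec4n was called in the B6 mean (1.80, adjusted p = 0.0389), at B6 8 w (1.89, adjusted p = 0.0461) and at DBA/2 9 w (adjusted p = 0.0339). Relative to the main scaling, the median of all probes moved by -0.45 to 0.66 with normexp, by -0.54 to 0.11 with pan-leukocyte centring and by up to 0.11 with quantile normalization. Over all tested probes, the mean change in DBA/2 was called for 5231 (2248 higher), against 583 (464 higher) with normexp, 4652 (2930 higher) with the percentile over all probes, 10815 (1136 higher) with pan-leukocyte centring and 3055 (1465 higher) without the filter. The B6 mean change was called for 3438, against 179 with normexp, 6499 with that centring and 1627 without the filter. Signal over background limited Clec4n alone among the members.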
